A study of Mus musculus with 8 samples.

Results

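The Zic genes Zic1, Zic2, Zic4 and Zic5 were followed across every library of a mouse medulloblastoma series. They were taken by symbol, 4 of the 20608 gene symbols in the bulk count table and 4 of the 27998 genes in both single-cell matrices. All 4 were found in each file and all 4 passed the filter on low bulk counts.

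The series measured gene expression in brain tumours of Patched 1 deficient mice, a genotype that every group shared; Patched 1 is the Hedgehog receptor that keeps Smo inactive when no ligand is bound. One single-cell library came from a tumour that had relapsed, taken at 3 weeks, and 1 from a primary tumour. The 6 bulk RNA-seq libraries are labelled as astrocytes sorted by flow cytometry, 3 from stroma B and 3 from stroma A. The labels tie neither stroma to a primary or relapsed tumour, so both keep their own names here, and the relapsed library, called relapsed in its title and source, carries a description that reads primary. The labels give no age, strain, sorting marker or number of animals, and do not say how Patched 1 was made deficient. The tissue was dissociated with papain. Tumour cells as well as astrocytes were sorted by flow cytometry per the labels, so the numbers of other cells in the single-cell libraries follow that sort.

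Zic proteins are C2H2 zinc finger transcription factors related to the GLI factors, the transcriptional effectors of the Hedgehog pathway. In the cerebellum Zic1 and Zic2 are known from granule neuron precursors, the cells from which Hedgehog-driven medulloblastoma arises, and Zic factors stay on as granule neurons mature. Zic genes are also active in the dorsal neural tube and the meninges. In the mouse genome they lie as pairs that are transcribed away from each other.

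In GENCODE M21 on mm10, the build of the deposited data, Zic1 spans chr9:91358058-91365810 on the minus strand and Zic4 spans chr9:91362413-91389348 on the plus strand. These annotated spans overlap by 3398 bases on opposite strands. Zic5 spans chr14:122456795-122465677 on the minus strand, and Zic2 spans chr14:122475435-122479852 on the plus strand, 9757 bases away. The long noncoding gene 2610035F20Rik lies between them at chr14:122470284-122475199. RefSeq ends the Zic2 transcript 476 bases further downstream than GENCODE does, and ends Zic1 at the same base. The strand setting of the bulk counts is not given in the sources used here, so bulk reads from the stretch shared by Zic1 and Zic4 cannot be told apart.

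The RefSeq promoter windows on GRCm38.p6 run from 250 bases before to 50 bases after the start. They are shown for the members found in the promoter table, and no Zic2 window was examined. By symbol, 3 of the 4 members matched the table, namely Zic1, Zic4 and Zic5. The windows of Zic1 and Zic5 lie at the RefSeq start of the gene, and that of Zic4 at a start site 3341 bases inside the RefSeq gene. Each is written 5′ to 3′ along its own gene, and capitals mark an E-box, CANNTG, or a CCAAT box, CCAAT, found on either strand.
Zic1 promoter, chr9:91365719-91366018, minus strand: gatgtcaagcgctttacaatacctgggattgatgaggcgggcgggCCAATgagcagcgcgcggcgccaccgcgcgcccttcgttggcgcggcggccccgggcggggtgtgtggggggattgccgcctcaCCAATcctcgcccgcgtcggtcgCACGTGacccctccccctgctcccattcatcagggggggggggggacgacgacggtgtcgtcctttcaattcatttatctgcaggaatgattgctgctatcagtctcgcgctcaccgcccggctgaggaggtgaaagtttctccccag
Zic4 promoter, chr9:91368722-91369021, plus strand: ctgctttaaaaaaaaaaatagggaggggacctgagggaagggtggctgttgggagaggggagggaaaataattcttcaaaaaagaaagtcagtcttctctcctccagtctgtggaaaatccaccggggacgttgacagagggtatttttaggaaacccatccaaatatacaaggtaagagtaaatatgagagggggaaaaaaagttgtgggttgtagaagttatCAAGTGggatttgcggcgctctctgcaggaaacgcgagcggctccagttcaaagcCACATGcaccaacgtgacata
Zic5 promoter, chr14:122465609-122465908, minus strand: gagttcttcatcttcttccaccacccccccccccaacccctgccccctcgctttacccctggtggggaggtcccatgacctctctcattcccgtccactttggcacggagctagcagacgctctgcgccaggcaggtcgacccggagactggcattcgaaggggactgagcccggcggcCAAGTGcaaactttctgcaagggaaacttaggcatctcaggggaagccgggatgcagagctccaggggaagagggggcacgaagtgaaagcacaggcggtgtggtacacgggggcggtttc

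The Zic1 window held 2 CCAAT boxes and 1 E-box, the Zic4 window 2 E-boxes, and the Zic5 window 1 E-box. E-boxes occurred in 72.3% and CCAAT boxes in 37.4% of the 32851 promoter windows of that length in the table, and no E-box overlapped a CCAAT box in these 3. The GC box GGGCGG, searched on both strands, occurred 3 times for Zic1 and 1 time for Zic5, and in 35.7% of all windows. The letters GACCACCCA, the core of the GLI site, were in none of the 3 windows on either strand and in 0.253% of all windows. GC content was 65.3% for Zic1 and 62.7% for Zic5, against a median of 52.7% over all windows, and 46.0% for Zic4. The ratio of observed to expected CpG was 0.969 for Zic1, above 92.3% of all windows.

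All 4 Zic genes were read in every sorted library, and each was higher in every stroma B library than in any stroma A library. The bulk table gave 6718165 to 11798735 counts per library, and levels are given as CPM, counts scaled to a common library total with TMM factors. Zic1 had 731, 552 and 136 CPM in the stroma B libraries, against 125, 46.4 and 83.9 CPM in the stroma A libraries. Stroma B replicates 1 and 2 stood well above the other 4 libraries, while stroma B replicate 3 was 1.09 times the highest stroma A library.

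Zic2 had 166, 142 and 57.0 CPM in stroma B, against 23.4, 9.36 and 30.3 CPM in stroma A. It was the member with the widest gap, the lowest stroma B library being 1.88 times the highest stroma A library. Zic4 had 128, 58.3 and 18.7 CPM in stroma B, against 14.7, 10.3 and 11.2 CPM in stroma A. Its gap was 1.27 times. Zic5, the partner of Zic2 on chromosome 14, had 53.2, 35.1 and 10.0 CPM in stroma B, against 3.54, 4.68 and 8.99 CPM in stroma A. Its gap was 1.12 times, so the groups of each member were separate but, outside Zic2, by little.

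**Figure D1:**
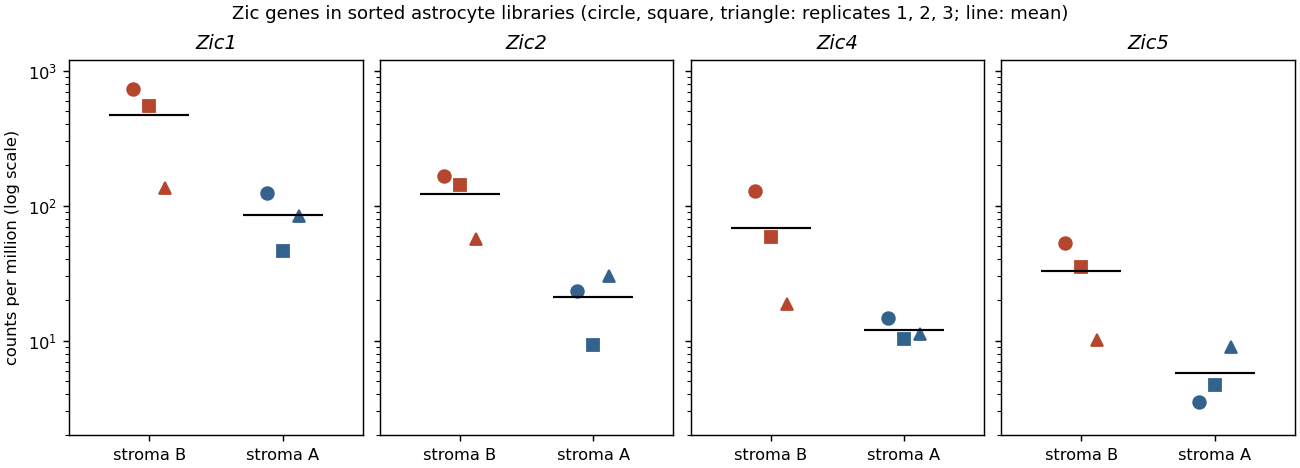
CPM, on a log axis, of the 4 Zic genes in each sorted astrocyte library, with stroma B at the left of each panel and stroma A at the right; symbols are replicates and lines are means of 3. In every panel the stroma B triangle, replicate 3, lies near the stroma A points, with Zic1 at 136 against at most 125 CPM.

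The fitted differences were of one size. In edgeR's quasi-likelihood test across 14176 genes, Zic1 averaged 473 ± 305 CPM in stroma B and 85.0 ± 39.2 in stroma A (SD, n = 3 each), a log2 fold change of 2.48 (SE 0.64) with an adjusted p of 0.114. Zic2 averaged 122 ± 57.2 CPM in stroma B and 21.02 ± 10.7 in stroma A, a log2 fold change of 2.53 (SE 0.54) with an edgeR adjusted p of 0.0825. Zic4 and Zic5 had log2 fold changes of 2.50 (SE 0.64) and 2.51 (SE 0.66), with edgeR adjusted p-values of 0.113 and 0.115. None of the 4 passed the threshold of 0.05, which 0.663% of all genes passed, 0.388% with higher levels in stroma B. A stroma B group wholly above stroma A, as in all 4 members, was seen in 14.2% of the genes tested, and groups that did not overlap in either direction in 27.2%. Of all genes, 11.2% were higher in stroma B at an unadjusted edgeR p under 0.05.

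The calls differed without stroma B replicate 3 and with another test. Without that library all 4 passed edgeR's test, with adjusted p-values of 0.0137 for Zic1, 0.0159 for Zic2, 0.0118 for Zic4 and 0.0149 for Zic5, while 1342 genes were then called in place of 94 and 4.13% of all genes were called higher. DESeq2 on all libraries and without the filter on low counts called all 4, with adjusted p-values of 0.000765, 0.00011, 0.00116 and 0.00197 in the same order of members, among 1797 genes called, and it called 5.39% of all genes higher. On the genes that pass the filter, an alternative chosen after seeing the data, DESeq2 called all 4 as well, with adjusted p-values from 0.000138 to 0.00288, among 1712 genes called, and 6.14% of all genes higher. Without the filter, edgeR called 227 genes and 1 of the 4 members, Zic2, with an adjusted p of 0.0439. Without any other single library edgeR called 0 genes, while 2067 to 3781 genes had an unadjusted p under 0.05. Over all alternatives the adjusted p ran from 0.000765 to 0.455 for Zic1, from 0.00011 to 0.359 for Zic2, from 0.00116 to 0.447 for Zic4 and from 0.00197 to 0.3904 for Zic5. In these bulk samples fewer cells of a type and less RNA per cell cannot be told apart, and where nothing says that the libraries came from separate animals the p-values measure only the spread between them.

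The summed level of granule precursor and tumour markers moved with the Zic genes, and that of differentiating granule neuron markers did not. The summed level of the 11 granule precursor and tumour markers, among them Atoh1, Barhl1, Gli1 and Ptch1, was 4021, 2619 and 648 CPM in the stroma B libraries, against 705, 322 and 376 CPM in the stroma A libraries. Stroma B replicate 3 was below stroma A replicate 1, so these sums overlapped. None of the 11 was at 0 in any library. The 14 differentiating granule neuron markers summed to 3315, 4546 and 3915 CPM in stroma B and to 4418, 3650 and 3227 CPM in stroma A. These sums overlapped as well, while 11 of the 13 that passed the filter had positive fold changes, with a median log2 of 2.08. Cntn1 went the other way, averaging 906 CPM in stroma B and 2240 in stroma A, and so held much of the stroma A sums. The 4 Zic genes together came to 26.8%, 30.1% and 34.2% of the granule precursor and tumour marker sum in stroma B. In stroma A they came to 23.6%, 22.0% and 35.7% of it, so on this scale the groups overlapped.

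The labelled cell type was checked against its own markers in the same libraries. The sum of 15 astrocyte markers, Aqp4 and Gfap among them, was 7382, 12203 and 4513 CPM in stroma B, against 4762, 2352 and 3850 CPM in stroma A. These sums overlapped, while 12 of the 15 had positive fold changes, against 48.4% of all genes, with a median log2 of 1.71. Of the 15, 5 were higher in every stroma B library than in any stroma A library, as 14.2% of all genes were, and 0 passed edgeR's test. Oligodendrocyte precursor markers, 12 genes including Pdgfra, summed to 2538, 2830 and 11993 CPM in stroma B and to 21892, 13261 and 12288 in stroma A, more than the astrocyte markers in 4 of the 6 libraries. Cycling markers summed to between 4954 and 5761 CPM in stroma B and between 1755 and 2096 in stroma A. The 9 oligodendrocyte markers summed to 249, 190.03 and 708 CPM in stroma B, against 1406, 2375 and 2376 CPM in stroma A. Each of the 9 was lower in every stroma B library than in any stroma A library. Of all genes tested, 27.2% had groups that did not overlap, in either direction. The 11 microglia markers summed to 117, 72.7 and 34.4 CPM in stroma B and to 31.8, 608 and 2526 CPM in stroma A, where replicates 2 and 3 stood apart. As a percentage of the astrocyte marker sum, the 4 Zic genes came to 14.6%, 6.45% and 4.92% in stroma B and to 3.49%, 3.01% and 3.49% in stroma A. What part the cell make-up of each library had in the Zic values was not tested.

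**Figure D2:**
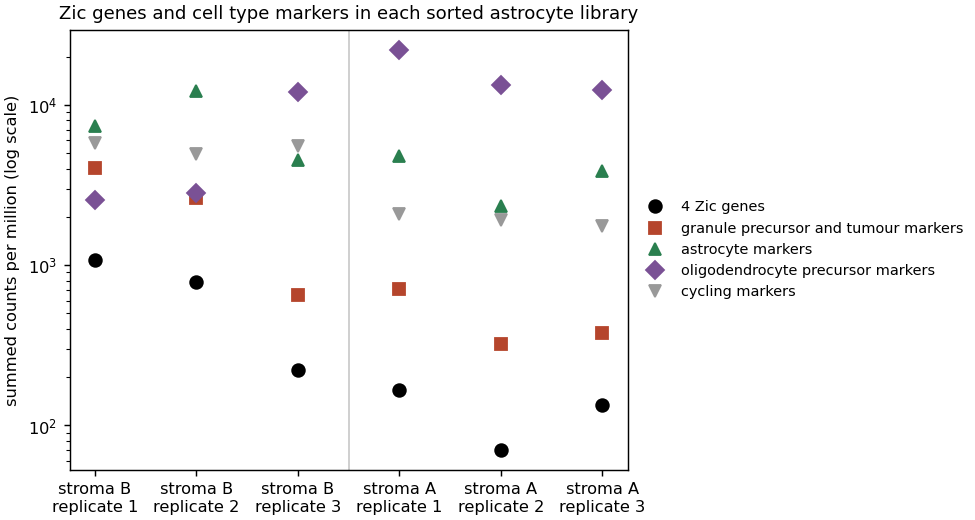
Summed CPM, on a log axis, of the 4 Zic genes and of 4 marker lists in each sorted library, stroma B at the left and stroma A at the right. The Zic sum follows the granule precursor and tumour markers from library to library, at 22.0% to 35.7% of them, while oligodendrocyte precursor markers are lowest in stroma B replicates 1 and 2.

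Other genes of the pathways in which Zic factors act gave no edgeR call either. Over all genes tested, 48.4% had positive fold changes, and DESeq2 without the filter called 5.39% higher. Gli2, a Hedgehog effector, averaged 99.1 ± 67.8 CPM in stroma B and 19.0 ± 4.57 in stroma A (SD, n = 3 each), a log2 fold change of 2.38 with an edgeR adjusted p of 0.114. Of 21 transcription factors of the granule lineage, 0 passed edgeR's test, 12 had an unadjusted p under 0.05, which 21.8% of all genes had, 20 had positive fold changes with a median log2 of 2.07, and DESeq2 called 12 higher. Meis1, a homeobox factor of granule cells, had the smallest p among them, with a log2 fold change of 2.09 and an edgeR adjusted p of 0.078. Of 17 Hedgehog pathway genes, 0 passed edgeR's test, 10 had an unadjusted p under 0.05, and DESeq2 called 9 higher. Of these 17, 14 had positive fold changes, with a median log2 of 1.73, against -0.03 over all genes tested. Smo, the membrane activator of the pathway, had the smallest p in that list, with a log2 fold change of 2.57 and an edgeR adjusted p of 0.0736.

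Per length, Zic1 was the most abundant member in all 6 sorted libraries. On the FPKM scale, Zic2 was 25.1%, 29.7% and 50.2% of Zic1 in stroma B and 21.4%, 21.3% and 41.2% in stroma A. The groups overlapped on this ratio, and replicate 3 was the highest in each. Zic4 was between 7.67% and 12.6% of Zic1, and Zic5 between 4.20% and 15.4%, over the 6 libraries.

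In the single-cell libraries the Zic genes were read in the granule lineage cells of the tumours and in other cell classes. After filtering, 7369 relapsed and 8549 primary cells were kept, of 7852 and 9164 barcodes with median depths of 7230 and 5404 UMIs, the unique molecular identifiers that mark single RNA molecules. The libraries share 93 barcode sequences. Single-cell levels are also CPM, the UMIs of a class or cluster summed over its cells and scaled to the same total. Clusters were formed without any Zic gene and named from marker lists, and 6916 relapsed and 7375 primary cells were of granule lineage. Each group is 1 library, so tumour, animal and relapse cannot be told apart, no test is possible, and the 95% intervals cover counting error only. Apart from Zic2, levels in the granule lineage as a whole were within a factor of 2 between the tumours.

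Zic1 was the most frequent member, with 524 CPM in relapsed granule lineage cells and 603 in primary ones. With each cell thinned to 2000 UMIs, 61.4% of relapsed and 67.8% of primary granule lineage cells held a Zic1 UMI, and without thinning 93.5% and 93.8% did. At full depth most granule lineage cells of both tumours thus held Zic1. The microglia and macrophage-like cells, which should lack the gene, gave 6.45% in the relapsed and 11.2% in the primary library at 2000 UMIs, with median depths of 11083 and 6056 UMIs against 6968 and 5625 in the granule lineage.

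Zic2 differed most between the tumours. It had 23.1 CPM (95% Poisson interval 21.9 to 24.4) in relapsed granule lineage cells and 4.46 (3.87 to 5.12) in primary ones, from 1299 and 204 UMIs. The ratio was 5.18-fold, a log2 of 2.37 (2.16 to 2.59). At 2000 UMIs per cell, 4.74% of relapsed and 0.908% of primary granule lineage cells held a Zic2 UMI, and 16.1% and 2.71% without thinning. In the microglia and macrophage-like cells 0 of 31 relapsed cells, which allows a share of up to 9.68%, and 0.465% of the primary cells held one at 2000 UMIs.

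Some granule lineage clusters had a marker of another class among their 10 leading genes, Pcp4 in clusters 8 and 11 of the relapsed tumour and Igf2 in cluster 15 of the primary tumour, so the tumours were compared cluster by cluster. Each cluster held at most 5 cells of the other library. Zic2 ran from 15.9 to 62.4 CPM over the 7 relapsed clusters and from 2.69 to 9.63 over the 8 primary clusters. The lowest relapsed cluster was thus above the highest primary cluster. The clusters of a tumour are parts of 1 library and not replicates, and the share of all genes separated in this way was not computed. Shares were taken over 6069 genes with at least 20 CPM in either library and more than 3 UMIs in both. Genes all but absent from 1 tumour were thus left out. Of the 6069, 0.544% were 4-fold or more higher in the relapsed granule lineage cells, as Zic2 was, and 2.85% were 2-fold or more higher.

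Zic4 was lower in the relapsed tumour by less. It had 123 CPM (120.2 to 126) in relapsed granule lineage cells and 223 (219 to 227) in primary ones, a log2 ratio of -0.86 (-0.90 to -0.81). Over clusters it ran from 103 to 164 in the relapsed tumour and from 125 to 304 in the primary tumour, where the lowest value belonged to cluster 15, led by Hoxb genes. Without that cluster, left out after seeing its value, the primary clusters began at 189.8. Cluster 4 of the primary tumour also had Hoxb genes among its leading genes and stayed in, at 195 CPM. Zic5 had 87.4 CPM in relapsed and 96.5 in primary granule lineage cells, a log2 ratio of -0.14 (-0.20 to -0.08), and its clusters overlapped. Zic1 had a log2 ratio of -0.20 (-0.22 to -0.18) with overlapping clusters. The median over the 6069 genes was -0.07, and 3.49% of them were 2-fold or more lower in the relapsed tumour, which no member was.

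Leaving out clusters 8, 11 and 15 kept the order of the tumours for each member. The log2 ratios were then -0.48 for Zic1, 2.09 for Zic2, -0.96 for Zic4 and -0.27 for Zic5. Clusters 8 and 11 were the only differentiating clusters of the relapsed tumour, while the primary differentiating clusters, 5 and 7, stayed in. The tumours were thus compared at unlike stages.

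**Figure D3:**
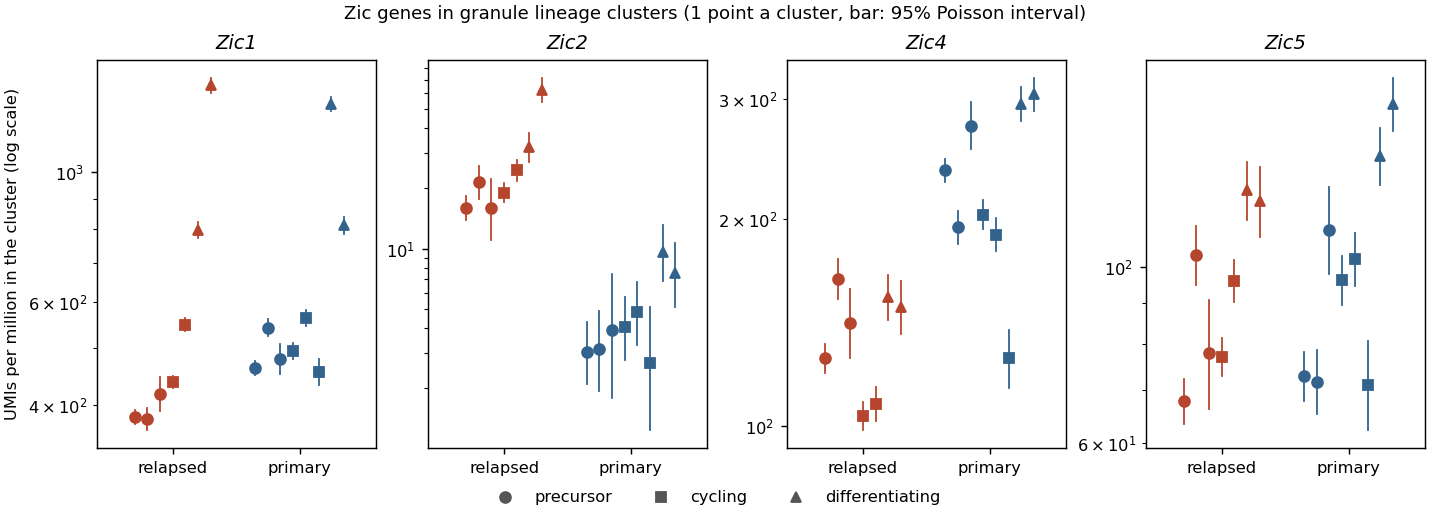
CPM, on log axes that differ between panels, of the Zic genes in each granule lineage cluster, relapsed at the left and primary at the right of each panel, with 95% Poisson bars and symbols for precursor, cycling and differentiating clusters. Zic2 is the member whose relapsed clusters, 15.9 to 62.4, all lie above its primary clusters, 2.69 to 9.63, and Zic1 is highest in differentiating clusters of both tumours.

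Within each tumour the members also followed maturation, to different degrees. Zic1 was 2.73-fold higher in differentiating than in precursor cells of the relapsed tumour, at 1049.8 against 385 CPM, and 2.16-fold higher in the primary tumour, at 1061 against 490.4. Zic2 was 2.58-fold higher in differentiating cells of the relapsed tumour, at 45.0 against 17.4, and 2.70-fold higher in those of the primary tumour, at 8.44 against 3.13. For both genes the 2 differentiating clusters lay above the 3 precursor clusters in each tumour.

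Zic5 was 1.58-fold higher in differentiating cells of the relapsed tumour, at 123 against 77.9 CPM, and 1.93-fold higher in those of the primary tumour, at 148 against 77.0. Zic4 differed least, at 151 against 137 CPM or 1.11-fold in the relapsed tumour, and 299.5 against 227 or 1.32-fold in the primary tumour. Its relapsed differentiating clusters, 149 to 154, overlapped the precursor clusters, 125 to 164, while its primary differentiating clusters, 295 to 304, lay above the precursor clusters, 195 to 274. The background was genes with at least 20 CPM in either stage and more than 3 UMIs in both. A ratio of 1.5-fold or more toward differentiating cells was seen in 18.6% of them in the relapsed and 17.3% in the primary tumour. Both relapsed differentiating clusters, 8 and 11, were among those with Pcp4 as a leading gene, and the primary ones, 5 and 7, were not. Cycling cells held 481 CPM of Zic1 in the relapsed and 513 in the primary tumour, between the levels of the other stages.

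The make-up of the family differed between the tumours. Of the UMIs of the 4 genes in granule lineage cells, Zic1 made up 69.2% in the relapsed and 65.0% in the primary tumour, Zic4 16.2% and 24.1%, Zic5 11.5% and 10.4%, and Zic2 3.05% and 0.482%. UMIs count molecules and are not scaled by length, but genes can differ in how well they are captured. Zic2 was 4.41% of Zic1 in relapsed and 0.741% in primary granule lineage cells by UMIs, while the sorted bulk libraries gave 21.3% to 50.2% on the FPKM scale. These scales differ, and the reason for the gap was not tested.

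Many cells held more than 1 member. At 2000 UMIs, 75.4% of relapsed and 81.7% of primary granule lineage cells held a UMI of at least 1 member, 23.0% and 30.6% held 2 members, and 3.50% and 5.55% held 3. For the pair on chromosome 9, Zic4 was detected in 23.8% of relapsed cells with a Zic1 UMI and in 22.8% of those without, and in 38.4% of primary cells with Zic1 and in 32.7% of those without. For the pair on chromosome 14, Zic2 was detected in 5.84% of relapsed cells with a Zic5 UMI and in 4.53% of those without, and in 1.04% of primary cells with Zic5 and in 0.879% of those without. Partners of a pair were thus found at near shares in cells with and without the other, in counts that are sparse at this depth.

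Astrocyte-like cells, 64 in the relapsed and 57 in the primary tumour, also held Zic RNA. They came from clusters 18.1, 18.5 and 18.6 mainly in the relapsed and 18.2, 18.3 and 18.8 mainly in the primary tumour, with median depths of 16390 and 4608 UMIs. Zic1 had 217 CPM (190.3 to 247) in relapsed and 446 (373 to 529) in primary astrocyte-like cells, a log2 ratio of -1.04 (-1.35 to -0.72). Zic4 had 51.5 and 186, a log2 ratio of -1.85 (-2.41 to -1.29), and Zic5 had 33.1 and 84.5, a log2 ratio of -1.35 (-2.13 to -0.55). All 3 were lower in the relapsed astrocyte-like cells, beyond counting error. Granule precursor and tumour markers were lower there too, 11 genes summing to 421 CPM in relapsed and 1349 CPM in primary astrocyte-like cells, and the 4 Zic genes came to 74.2% and 53.6% of that sum. Among those markers the log2 ratio was -2.67 (-3.04 to -2.31) for Ptch1, -1.19 (-1.86 to -0.49) for Barhl1 and -0.07 (-1.43 to 1.53) for Atoh1. Their part in the Zic values was not tested. Zic2 gave 12 UMIs in the relapsed and 2 in the primary astrocyte-like cells, too few for a ratio.

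At 2000 UMIs, 37.5% of relapsed and 52.6% of primary astrocyte-like cells held a Zic1 UMI, and 12.5% and 36.8% held Zic4. Relative to the granule lineage cells of the same tumour, astrocyte-like cells had a log2 ratio of Zic1 of -1.27 (-1.46 to -1.09) in the relapsed and -0.43 (-0.69 to -0.19) in the primary tumour. For Zic4 it was -1.26 (-1.66 to -0.88) in the relapsed tumour and -0.26 (-0.67 to 0.12) in the primary tumour, where the interval held 0. Zic5 gave -1.40 (-1.92 to -0.93) in the relapsed and -0.19 (-0.82 to 0.37) in the primary tumour.

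Granule lineage genes were set beside Zic1 in the same cells, as a share of the UMIs of each pair of genes with its exact binomial interval at 95%. Atoh1, the granule precursor factor, made up 8.17% of Atoh1 and Zic1 UMIs in relapsed astrocyte-like cells (5.13% to 12.2%) and 4.35% in primary ones (1.61% to 9.22%). In differentiating granule cells it made up 8.40% in the relapsed and 4.25% in the primary tumour, values inside those intervals, and in the granule lineage as a whole 31.3% and 21.6%. Barhl1, another granule lineage factor, made up 17.5% (13.3% to 22.4%) in relapsed and 19.0% (13.3% to 25.9%) in primary astrocyte-like cells, below each granule stage, since the lowest, differentiating cells, had 42.2% in the relapsed and 34.3% in the primary tumour.

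The other classes varied on these shares. Atoh1 made up 29.2% (12.6% to 51.1%) in microglia and macrophage-like cells of the relapsed and 23.9% (18.0% to 30.7%) of the primary library, 31.3% (23.0% to 40.6%) in the pituitary hormone cell-like cells of the relapsed library, and 9.52% (2.66% to 22.6%) in oligodendrocyte precursor-like cells of the relapsed and 17.2% (8.59% to 29.4%) of the primary library. Barhl1 made up 64.6% (57.9% to 70.8%) in the pituitary hormone cell-like cells, against 55.1% in the granule lineage and 64.5% in its precursors. In microglia and macrophage-like cells Barhl1 made up 41.4% (23.5% to 61.1%) in the relapsed and 49.6% (43.7% to 55.6%) in the primary library. In oligodendrocyte precursor-like cells it made up 29.6% (18.0% to 43.6%) in the relapsed and 40.7% (29.9% to 52.2%) in the primary tumour. The part of free RNA and doublets in the Zic values of these classes was not tested.

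Across the cell classes Zic1 was highest in differentiating granule cells of both tumours. In the relapsed tumour differentiating cells stood at 1049.8 CPM, followed by 13 pericyte-like cells at 519.6 (399 to 665), cycling granule cells at 481 (473 to 489) and granule precursors at 385 (376 to 393). Pericyte-like and cycling cells were not separate within these intervals. Below them came 22 meningeal fibroblast-like cells at 266 CPM (221 to 317), astrocyte-like cells at 217 (190.3 to 247) and 13 endothelial-like cells at 141 (97.0 to 198). The lowest levels were those of 34 oligodendrocyte precursor-like cells at 88.0 CPM (62.3 to 121), microglia and macrophage-like cells at 46.2 (26.9 to 74.0) and pituitary hormone cell-like cells at 43.4 (34.4 to 54.1). From the fibroblast-like cells downward, each class overlapped the next in its interval.

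In the primary tumour differentiating cells stood at 1061 CPM. Next came 6 meningeal fibroblast-like cells at 519.97 (303 to 833), cycling cells at 513 (503 to 524), precursors at 490.4 (481 to 500.3), astrocyte-like cells at 446 (373 to 529) and 3 pericyte-like cells at 358 (116 to 835). From the fibroblast-like to the pericyte-like cells, the only neighbours with separate intervals were cycling cells and precursors. Endothelial-like cells, 21 in all, stood at 143 CPM (86.3 to 224), 215 microglia and macrophage-like cells at 82.1 (69.2 to 96.7) and 188 oligodendrocyte precursor-like cells at 70.2 (51.8 to 93.1), each overlapping the next. The astrocyte-like cells lay above the endothelial-like cells.

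The meningeal fibroblast-like cells of the relapsed tumour held Zic2 at 38.9 CPM (23.0 to 61.5), from 18 UMIs, and Zic4 at 153 (119.8 to 194). Their Zic2 level had an interval that overlapped that of relapsed differentiating granule cells, 45.0 (40.4 to 49.9). In oligodendrocyte precursor-like cells Zic4 stood at 16.2 (6.52 to 33.4) in the relapsed and 14.6 (7.01 to 26.9) in the primary tumour, against 5.44 (0.658 to 19.6) and 29.9 (22.3 to 39.2) in microglia and macrophage-like cells, so it was at the level of cells that should lack it. Zic5 was at 27.8 (14.4 to 48.6) and 8.78 (3.22 to 19.1) in oligodendrocyte precursor-like cells of the relapsed and primary tumours.

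**Figure D4:**
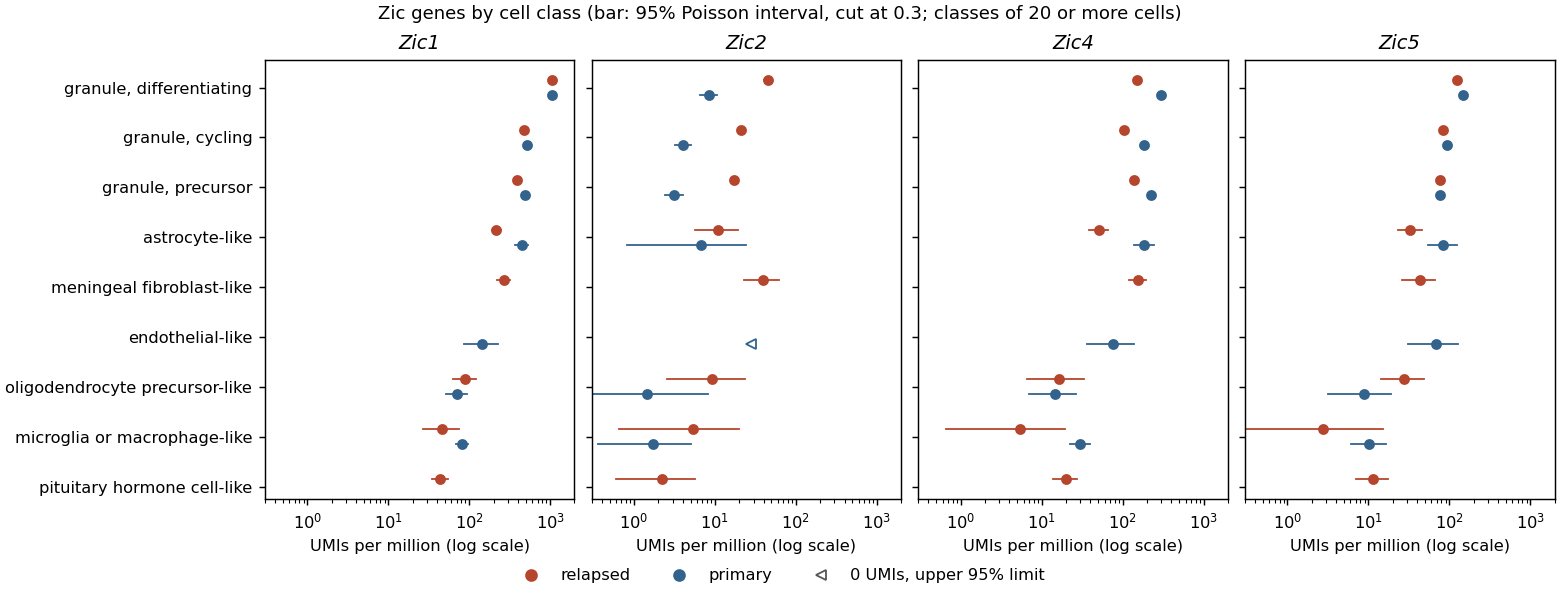
CPM, on a log axis, of each Zic gene in cell classes of 20 or more cells, with the relapsed tumour drawn above the primary tumour in each row; bars are 95% Poisson intervals and open triangles mark upper limits where 0 UMIs were read. Zic1 and Zic5 are highest in differentiating granule cells of both tumours, and the Zic2 points of the 2 tumours are apart in all 3 granule stages.

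Over the 15 class-by-library sums of at least 20 cells, Zic1, Zic4 and Zic5 followed one another, with Pearson correlations of log2 levels of 0.92 for Zic1 with Zic4, 0.92 for Zic1 with Zic5 and 0.93 for Zic4 with Zic5. Zic2 stood apart, at 0.53 with Zic1, 0.35 with Zic4 and 0.38 with its neighbour Zic5. The sums of one library share its depth and free RNA, and among 10840 genes the closest to Zic1 were Rdh5 at 0.96, Carhsp1 at 0.94, Mfap4 at 0.93, Nfib at 0.91 and Ebf1 at 0.91. The closest to Zic2 were Kctd6 at 0.86, Emc3 at 0.85, Fbxw8 at 0.84, Bmp5 at 0.84 and Arf5 at 0.83. For Zic4 they were Igsf3 at 0.92, Rdh5 at 0.92, Mllt3 at 0.90, Ublcp1 at 0.90 and Afap1 at 0.88. For Zic5 they were Rdh5 at 0.94, Hsf2 at 0.93, R3hcc1 at 0.93, Mllt3 at 0.92 and Coro2b at 0.91. Rdh5 was thus among the nearest genes of Zic1, Zic4 and Zic5, and Mllt3 among those of Zic4 and Zic5.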

How the data were processed

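The authors deposited bulk read counts by gene symbol, not normalized, and FPKM values, and single-cell matrices of UMI counts from a Chromium run, per the labels' protocols. Cell Ranger, STAR, Seurat and the build mm10 appear in the submitters' processing notes without version or role. For the bulk counts, neither counter, annotation nor strand setting is given in the sources read. Stroma A replicate 2 was matched to its columns by the start of its title, since the column names add a number. One gene list is not reported here. Members and gene lists were chosen with earlier results of these data known.

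Bulk counts were filtered with filterByExpr, scaled with TMM and tested with edgeR 4.0.16 (quasi-likelihood, R 4.3.3), with Benjamini-Hochberg adjusted p-values over all 14176 genes and a threshold of 0.05. On simulated counts the script called most of the genes given a known change. The spread of those counts was set in advance and not taken from these libraries. The simulation thus checks the code and not the power of the test here. Alternatives were RLE factors, no filter, DESeq2 1.42.0 without and with the filter, limma 3.58.1 on log2(FPKM + 1) and log2(FPKM + 0.1), and each library left out.

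Cells with at least 500 genes and at most 10% mitochondrial UMIs passed, 7839 relapsed and 9094 primary. The Scrublet caller marked 0 cells in both libraries, so the 6% with the highest scores were removed, 470 relapsed and 545 primary. Cells were clustered with scanpy 1.11.5 on 2000 variable genes, without any Zic gene, 30 components and 15 neighbours, with Leiden resolution 1. A cluster took a class name from at least 3 of its markers at 4-fold or more over other cells with at least 20 CPM and a UMI in at least 20% of its cells, and granule stages from the median fold of their marker lists at 1.3 or more, thresholds set after seeing the data. Where a cluster met this for several classes it was subclustered. Clusters with few genes, led by another class or without a class stayed unnamed, 154 relapsed and 684 primary cells. For shares of cells, each cell was thinned to 2000 UMIs, and no cell was shallower. The genes named as closest to each member are the 5 with the highest correlation of log2(level + 1) among genes of at least 20 CPM in a sum. Coordinates came from GENCODE M21 and promoters from RefSeq.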

Additional observations from a re-analysis of the deposited data

How the results depend on the processing

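Every bulk fold change of the 4 members stayed positive in all 52 comparisons with an alternative, and 13 of these passed the threshold. For each member every stroma B library lay above every stroma A library, so leaving libraries out could not turn a sign. The other alternatives refit the same 6 libraries. The count of signs is thus no separate support. DESeq2 without the filter on low counts gave log2 fold changes of 2.49 for Zic1, 2.55 for Zic2, 2.51 for Zic4 and 2.54 for Zic5, all past it, and 1797 genes called. With the filter, chosen after seeing the data, it gave 2.47, 2.53, 2.49 and 2.51 in that order, all past it, and 1712 genes called. Without the filter on low counts edgeR called 227 genes and Zic2, at 2.63 with an adjusted p of 0.0439. With 1 library left out, the number of genes called ran from 0 to 1342 and the log2 fold changes from 2.04 to 2.94 for Zic1, from 2.18 to 2.89 for Zic2, from 1.70 to 2.97 for Zic4 and from 2.01 to 3.00 for Zic5. The median log2 fold change of all genes, -0.03 in edgeR, was -0.26 with DESeq2 and -0.15 with edgeR, both without the filter, and 0.15 and 0.22 with limma. Both limma fits on FPKM called 0 genes, with 2687 and 2763 at an unadjusted p under 0.05. The fit without stroma B replicate 1 and stroma A replicate 3 called 0 as well, with 1563 at that p. No paired analysis was possible because the groups share only 1 number in their titles.

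In the single cells, 39 of 43 comparisons of a log2 ratio with an alternative moved it by less than its counting interval. The exception, chosen after seeing the data, left out the 3 granule lineage clusters with a leading marker of another class. It gave -0.48 for Zic1, 2.09 for Zic2, -0.96 for Zic4 and -0.27 for Zic5. It also left no relapsed differentiating cluster, while the primary ones stayed in. For astrocyte-like cells both other Leiden resolutions returned exactly the main ratios, so those comparisons add nothing to the 39. Zic2 in astrocyte-like cells gave no ratio under the main setting, and its alternatives were not computed. Shares of cells with a UMI moved in 33 of 48 comparisons, since they follow the thinning depth. Depth limits Zic2 most: at 2000 UMIs no astrocyte-like cell held it. The 13 pericyte-like, 13 endothelial-like and 22 fibroblast-like relapsed cells are few, and the primary tumour held 3, 21 and 6 of these.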
